A study of Mus musculus with 4 samples.

Results

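The spliceosomal small nuclear RNA (snRNA) genes were defined as genes of type snRNA in GENCODE mouse release M21 with 10 or more estimated counts in at least 2 of 4 libraries of naive CD4 T cells. They numbered 82 of 1385 annotated snRNA genes, of which 436 had any count, and of 48858 genes in all. Genes with identical counts in every library were merged, which left 62 units, 8 of them holding 28 genes and 54 holding 1 gene each. The members were chosen by their estimated counts in both groups, so passing the count minimum is not a finding. Within each of the 8 merged units the annotated RNAs had 1 sequence.

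Both groups were naive CD4 T cells of mice, sorted by flow cytometry as TCRb+ CD4+ CD25- CD62L-high CD44-low cells, and total RNA was sequenced after rRNA depletion. The DKO group (2 libraries) lacked Btg1 and Btg2 through the genotype Btg1f/f Btg2f/f-CD4-Cre, in which Cre under Cd4 regulatory sequences deletes floxed alleles in developing T cells. The WT group (2 libraries) came from littermates with Btg1f/f Btg2f/f and no Cre, so both groups carried the floxed alleles and only one carried the recombinase. The labels speak of pairs of mice, give no age or sex, and do not say what a pair shares, so p-values measure the spread between these 4 libraries. The deleted genes were in keeping with the labels. Btg1 had 6.11 and 5.80 CPM (counts scaled to a common library size) in DKO libraries 1 and 2, against 532 and 472 CPM in WT libraries 1 and 2, and Btg2 had 0.296 and 0.325 CPM in DKO, against 93.4 and 92.5 CPM in WT.

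Spliceosomal snRNAs are short, abundant RNAs without a poly(A) tail that form the core of the splicing machinery. In the major spliceosome, U1 pairs with the 5′ splice site, U2 with the branch point, and a tri-snRNP brings U4, U5 and U6 together. In the minor spliceosome, which removes a rare class of introns, U11, U12, U4atac and U6atac take the places of U1, U2, U4 and U6, and U5 is shared. RNA polymerase II makes most of them, and they receive a ring of Sm proteins. RNA polymerase III makes U6 and U6atac, which carry LSm proteins. BTG1 and BTG2 are adaptors that bring the CCR4-NOT deadenylase to mRNA, and quiescent T cells express both.

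By family, 20 of the 82 genes were U1, 12 were U2, 6 were U5 and 38 were U6, and U11 and U12 had 1 gene each. No gene in the annotation is named U4, U4atac or U6atac, so 4 genes were placed by sequence and are called U4-like (Gm24407 and Gm24265), U4atac-like (Gm22710) and U6atac-like (Gm25541). Of 948 U6-family genes 637 had no count in any library, as did 142 of 196 U1-family genes. The U7 snRNA gene Rnu7, whose product processes histone mRNA, was listed at 0 in all 4 libraries. Its RNA of 62 bases is shorter than the mean fragment of the libraries (119.8 to 142.2 bases), so this 0 does not show that U7 was absent.

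The RNA sequences that carry the findings are printed 5′ to 3′ as DNA letters, from the GENCODE M21 transcripts on GRCm38. Capitals mark the 5′ splice site pairing bases in Rnu1a1 (chr11:87422867-87423030, plus strand) and the branch point pairing bases in Rnu2-10 (chr11:101658238-101658428, plus).
Rnu1a1: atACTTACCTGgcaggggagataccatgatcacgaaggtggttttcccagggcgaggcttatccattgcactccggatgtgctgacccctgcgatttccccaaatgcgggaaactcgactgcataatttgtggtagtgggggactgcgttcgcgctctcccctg
Rnu2-10: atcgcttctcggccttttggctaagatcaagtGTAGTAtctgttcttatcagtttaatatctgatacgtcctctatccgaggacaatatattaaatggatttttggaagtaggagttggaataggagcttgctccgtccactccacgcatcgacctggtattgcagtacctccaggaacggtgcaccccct

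The U2 variants are shown because their counts differ although their sequences nearly match. Capitals mark the bases in which Gm23444 (chr11:83271498-83271688, plus), Gm25939 (chr1:72255008-72255198, plus) and Gm24497 (chr1:72244213-72244403, plus) differ from Rnu2-10.
Gm23444: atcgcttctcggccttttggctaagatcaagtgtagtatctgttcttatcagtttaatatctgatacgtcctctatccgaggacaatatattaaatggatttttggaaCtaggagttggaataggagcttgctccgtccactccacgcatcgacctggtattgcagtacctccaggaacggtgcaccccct
Gm25939: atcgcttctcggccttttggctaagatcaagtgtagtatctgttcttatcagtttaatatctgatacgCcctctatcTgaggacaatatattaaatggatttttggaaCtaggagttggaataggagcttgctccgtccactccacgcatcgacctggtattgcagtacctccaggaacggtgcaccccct
Gm24497: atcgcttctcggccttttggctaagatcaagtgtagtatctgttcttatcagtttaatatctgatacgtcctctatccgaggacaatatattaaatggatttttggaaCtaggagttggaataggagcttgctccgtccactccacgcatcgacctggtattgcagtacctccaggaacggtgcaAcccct

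The genes placed by sequence are shown with their longest run complementary to a partner. Such runs alone do not set the names: Gm22710 also had 7 bases complementary to Rnu6, and Gm24407 had 7 to Gm25541. Capitals mark bases 5 to 12 of Gm24407 (chr5:115490254-115490394, plus), which are complementary to 8 bases of Rnu6, and bases 2 to 9 of Gm22710 (chr1:118459141-118459265, minus), which are complementary to 8 bases of Gm25541 (chr2:27539805-27539930, minus).
Gm24407: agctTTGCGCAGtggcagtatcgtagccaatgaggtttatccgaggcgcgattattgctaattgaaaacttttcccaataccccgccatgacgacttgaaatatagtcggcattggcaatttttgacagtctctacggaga
Gm22710: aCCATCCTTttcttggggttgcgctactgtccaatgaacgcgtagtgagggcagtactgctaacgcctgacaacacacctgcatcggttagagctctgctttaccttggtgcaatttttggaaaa
Gm25541: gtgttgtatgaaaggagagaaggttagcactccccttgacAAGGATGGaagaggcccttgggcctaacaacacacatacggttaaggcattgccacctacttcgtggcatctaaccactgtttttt

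These motifs were searched in the RNA sequence of each gene, and no motif is contained in another. ACTTACCTG was found in 18 of 20 U1 genes, against 27.6% of all 196 U1-family genes and 3.98% of 1383 snRNA genes with a sequence. GTAGTA was found in 11 of 12 U2 genes, against 52.5% of 40 U2-family genes. Of Sm-type sites, ATTTTTG was found in all 12 U2 and both U4-like genes, in Rnu12 and in Gm22710, and ATTTGTG in 18 of 20 U1 genes. Over all snRNA genes these 2 letter strings were found in 3.33% and 12.9%. Counting matches on either strand gave the same numbers for the member genes of the families named here.

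The U1, U2 and U4-like copies with counts lay mostly in a few clusters, while those of U6 were scattered, and the members lay on 19 chromosomes. Of the U1 counts, 75.0% fell on 7 genes within 41.8 kb of chromosome 12 (Gm22513 to Gm22317) and 21.7% on Rnu1a1 and Gm22068 within 4.01 kb of chromosome 11. Of the U2 counts, 80.4% fell on 5 genes within 53.6 kb of chromosome 11, among them Rnu2-10, and 14.7% on 4 genes within 29.0 kb of chromosome 1. Identical copies were given equal estimated counts. The split of the Rnu1a1 sequence between chromosomes 12 and 11 therefore followed the number of annotated copies and was not measured. The same holds for Gm23444 on chromosome 11 and its identical copy Gm23472 on chromosome 1. The 2 U4-like genes lay 0.936 kb end to end on chromosome 5. By annotation 56 of the 82 genes were intergenic, 15 lay in an intron of a gene on the same strand and 7 in an intron of a gene on the opposite strand. The remaining 4 overlapped an exon.

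The snRNA genes took 0.177% and 0.158% of all estimated counts in DKO libraries 1 and 2, and 0.322% and 0.442% in WT libraries 1 and 2. Both DKO libraries lay below both WT libraries. The exact two-sided permutation test gave p = 0.333, the smallest that 2 against 2 libraries allow. Since these are shares of bulk libraries, fewer cells with these RNAs and less RNA per cell cannot be told apart.

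Summed by family and scaled by TMM (a between-library scaling on most genes), every family but U11 was lower in both DKO libraries than in both WT libraries. These family sums are descriptions without a test. U1 had 503 and 381 CPM in DKO, against 863 and 1439 CPM in WT. U2 had 925 and 746 CPM in DKO, against 2042 and 2808 CPM in WT. The U4-like sum was 208 and 125 CPM in DKO, against 400 and 692 CPM in WT.

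For U1, U2 and U4-like the DKO mean was 38.4%, 34.4% and 30.4% of the WT mean. U5 had 23.7 and 16.1 CPM in DKO, against 25.4 and 65.6 CPM in WT. Here the nearest DKO and WT libraries were close, and WT library 2 set most of the difference: the log2 fold change of U5 was -1.19, but -0.35 without WT library 2. U6 had 49.7 and 23.2 CPM in DKO, against 99.3 and 231 CPM in WT, which made the DKO mean 22.1% of the WT mean. Of its 38 genes 13 reached the count minimum in WT only, so the difference was partly fixed by the choice of members. This holds for each U6 sum given below. The log2 fold change of the U6 sum was -2.18, and -1.94 over members with 10 or more counts in all 4 libraries. The pooled SD within groups was 0.82 for U6 on the log2 scale, against 0.28 for U2.

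**Figure D1:**
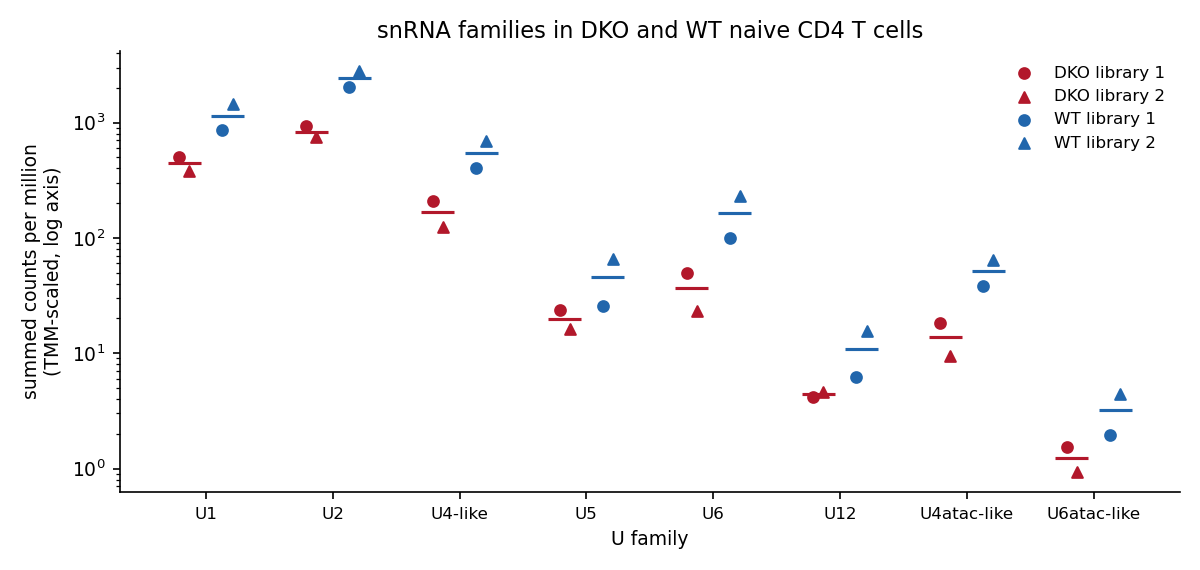
Summed TMM-scaled CPM (log axis) of the snRNA families in DKO (left, red) and WT (right, blue) libraries, with circles for library 1, triangles for library 2 and a line at the group mean. In each of the 8 families shown both DKO libraries sit below both WT libraries, and WT library 2 is the highest in each.

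Levels can be compared between families only per length, in TPM (counts per effective length, scaled to a common sum). U2 was highest, at 1081 ± 4.72 TPM in DKO and 2164 ± 128 TPM in WT (SD, n = 2 each). U1 followed at 763 ± 29.9 TPM in DKO and 1337 ± 231 TPM in WT, and the U4-like pair at 376 ± 73.9 TPM in DKO and 833 ± 154 TPM in WT. U6 had 136 ± 51.2 TPM in DKO and 417 ± 164 TPM in WT, and U5 had 63.6 ± 7.14 TPM in DKO and 95.9 ± 42.7 TPM in WT.

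The order U2, U1, U4-like, U6, U5 was the same in both groups, and in each group every pair of neighbours in this order was farther apart than the sum of their SDs. This is an order of estimates. The U6 RNA Gm23296 (107 bases) and the U5 RNA Rnu5g (116 bases) are shorter than the mean fragment of 119.8 to 142.2 bases. Their effective lengths were 25.9 to 32.2 and 29.8 to 37.6 bases. Whether TPM gives the abundance of such short RNAs in cells was not tested. In TPM the U5 and U12 libraries of the groups overlapped, and the other families with counts in every library were still lower in both DKO libraries. On this scale the log2 differences were smaller, at -0.81 for U1, -1.15 for U4-like and -1.61 for U6.

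Within the snRNA counts the mix was similar. U1 made up 29.0% and 29.1% in DKO, against 24.8% and 27.0% in WT, and U2 made up 53.4% and 57.0% in DKO, against 58.8% and 52.8% in WT. The U1 share did not overlap between groups, and the shares of U2, U4-like, U5 and U6 did.

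Of the 62 units, 61 passed the filter on low counts and were tested with edgeR's quasi-likelihood test across 12863 genes, with Benjamini-Hochberg adjustment. The U2 unit of Rnu2-10, Gm23849, Gm23971 and Gm24950 was the 1 unit called lower in DKO, and no unit was called higher. Among all genes tested 0.0700% were called lower and 0.0544% higher. Copies entered the fit as separate genes, so the 4 copies of this unit are among the 9 genes called lower. With identical copies merged before the fit the unit was not called. At an unadjusted p below 0.05, 40 units were lower and 0 higher, against 4.35% and 3.83% of all genes. With DESeq2, 22 units were lower and 0 higher, against 1.03% and 0.428% of all genes.

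Both DKO libraries were below both WT libraries in 49 of 61 units and above them in 0, against 18.8% and 19.9% of all genes. The median log2 fold change of the units was -1.77, against -0.01 for all genes tested. These counts describe the units and do not test them. Among the 20 genes that reached 10 counts in exactly 2 libraries, 15 did so in both WT libraries and 0 in both DKO libraries, so their direction was partly fixed by the count minimum. Of the 35 units with 10 or more counts in all 4 libraries, 31 had both DKO libraries lower and none had both higher, with a median log2 fold change of -1.59.

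The number of calls moved with the fit, while no unit was called higher in any of 14 fits. The fold change was below 0 in 60 of 61 units and above 0 in 1, against 51.9% and 48.1% of all genes. In edgeR with total counts in place of TMM 13 units were called lower, against 0.490% of all genes lower and 1.23% higher. With scaling to 5 RNA polymerase III transcripts 3 were (Gm23511, Gm24497 and Gm23296), against 0.171% and 3.67%. With TMM from protein-coding genes 2 were (Rnu2-10 and Gm23355), against 0.0933% and 0.0622%.

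With no filter on low counts 31 units were called lower, against 0.976% of all genes lower and 0.544% higher. With the replicate number as a block 14 were, against 0.692% and 0.396%, and with the numbers crossed 33 were, against 2.96% and 1.03%. With identical counts merged before the fit 0 were, against 0.0388% and 0.0388%. Leaving out DKO library 1 or 2 gave 6 and 6 units, against 0.260% and 0.205% of all genes lower and 0.105% and 0.0879% higher. Leaving out WT library 1 gave 21, against 0.938% and 0.243%, and leaving out WT library 2 gave 3, against 0.348% and 0.209%.

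The U1 genes with most counts were 7 copies with the Rnu1a1 sequence. This unit had 387 and 289 CPM in DKO, against 654 and 1092 CPM in WT, with a log2 fold change of -1.37 (SE 0.29). Its adjusted p was 0.251 by edgeR's quasi-likelihood test, so the difference did not pass. Gm22513 differs from Rnu1a1 by T60C, counted from the first base of the RNA, and had 97.1 and 75.3 CPM in DKO, against 174 and 281 CPM in WT.

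Its log2 fold change of -1.40 was close to that of the Rnu1a1 copies, and its share of U1 counts overlapped between groups, at 19.3% and 19.8% in DKO and 20.2% and 19.5% in WT. Gm24305, which differs by A26G, had 5.52 and 3.45 CPM in DKO, against 5.67 and 17.9 CPM in WT. The genes of U1b, a mouse U1 variant known from embryonic tissue, lie on chromosome 3 (Rnu1b6, Gm24830, Gm26232, Gm22614 and Gm25890). They made up 1.53% and 1.98% of U1 counts in DKO, against 1.29% and 1.68% in WT. Their share overlapped between groups, and Gm22614 and Gm25890 together had 3.18 and 4.95 CPM in DKO, against 5.84 and 7.10 CPM in WT. With scaling to RNA polymerase III transcripts in place of TMM, that unit was on the other side of 0, with a log2 fold change of 0.33.

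The Rnu2-10 unit fell in DKO cells. It had 740 and 572 CPM in DKO, against 1650 and 2266 CPM in WT, a mean of 656 ± 119 and 1958 ± 435 CPM (SD, n = 2 each). The log2 fold change was -1.58 (SE 0.21) with an adjusted p of 0.0384 by edgeR's quasi-likelihood test. The call was lost without DKO library 2 (adjusted p = 0.0571), when the identical copies were merged before the edgeR fit (adjusted p = 0.0667) and with scaling to the polymerase III transcripts (log2 fold change -0.64, adjusted p = 0.145).

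Gm23444 and its identical copy Gm23472 differ from Rnu2-10 by G109C, a position after the Sm site. They had 97.8 and 99.2 CPM in DKO, against 166 and 223 CPM in WT, with a log2 fold change of -0.98 (SE 0.16). Gm25939 differs by T69C, C78T and G109C and had 58.7 and 45.5 CPM in DKO, against 113 and 166 CPM in WT, a log2 fold change of -1.42 (SE 0.21).

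Gm24497 carries G109C and, near its 3′ end, C186A. It lay outside the rule for naming genes and was chosen after its values were seen. It had 22.7 and 13.4 CPM in DKO, against 92.2 and 122 CPM in WT, with a log2 fold change of -2.58 (SE 0.29). By edgeR's quasi-likelihood test the adjusted p was 0.0824 for the Gm23444 unit, 0.0753 for Gm25939 and 0.0683 for Gm24497, so none of the 3 passed, although each lay apart in all libraries.

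The shares of Gm24497 and of the Gm23444 unit lay apart between the groups. Gm24497 made up 2.45% and 1.80% of U2 counts in DKO, against 4.52% and 4.36% in WT. The Gm23444 unit made up 10.6% and 13.3% in DKO, against 8.15% and 7.94% in WT. These shares need no scaling between libraries, and their Wilson 95% intervals, which cover counting error only, did not overlap between any DKO and any WT library: 2.22 to 2.70% and 1.60 to 2.01% in DKO against 4.28 to 4.76% and 4.14 to 4.59% in WT for Gm24497. Gm25939 made up 6.35% and 6.10% in DKO, against 5.55% and 5.92% in WT, and its intervals overlapped (5.74 to 6.48% in DKO library 2 and 5.66 to 6.18% in WT library 2). Such intervals can also lie apart within a genotype. Gm26316, which differs from Rnu2-10 by C170T, held 0% in DKO library 1 (0 to 0.0246%) and 1.37% in DKO library 2 (1.21 to 1.57%). Intervals that do not overlap therefore do not by themselves show a difference between the groups.

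The log2 ratio of Gm24497 to the Gm23444 unit was -2.50 ± 0.55 in DKO and -0.86 ± 0.01 in WT (SD, n = 2 each; exact permutation p = 0.333, the smallest possible). Only 3.73% of the 31-base words of Gm24497, and none of those of Gm23444, were found in no other transcript, so the division of reads between these copies rests on few bases. The part that this division plays in the ratio was not tested.

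**Figure D2:**
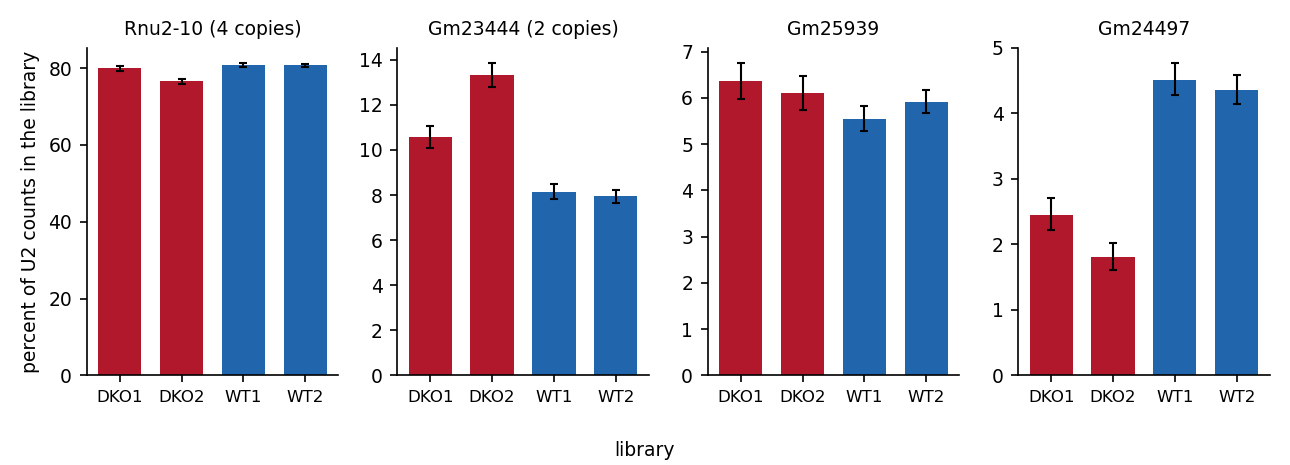
Share of the U2 counts (percent) that fell on each of 4 U2 sequences in the DKO (red) and WT (blue) libraries, each panel with its own axis from 0 and Wilson 95% intervals for counting error. Gm24497 holds 1.80 to 2.45% in DKO and 4.36 to 4.52% in WT, and the Gm23444 unit holds 10.6 to 13.3% in DKO and 7.94 to 8.15% in WT.

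U4 holds U6 inactive by base pairing until the spliceosome is activated. Gm24407 had 111 and 67.1 CPM in DKO, against 244 and 386 CPM in WT, with a log2 fold change of -1.82 (SE 0.34). Gm24265, which differs from it by A88G and A99C, had 96.2 and 57.6 CPM in DKO, against 156 and 306 CPM in WT, with a log2 fold change of -1.59 (SE 0.48). By edgeR's quasi-likelihood test neither passed (adjusted p = 0.244 and 0.577), and for both genes the groups lay apart.

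Gm24407 took 53.6% and 53.8% of the counts of the pair in DKO, against 61.0% and 55.8% in WT. It was the larger share in each library. The log2 ratio of Gm24407 to Gm24265 was 0.21 ± 0.01 in DKO and 0.49 ± 0.22 in WT (SD, n = 2 each), and the groups did not overlap (exact permutation p = 0.333).

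U5 holds both exons in place through its loop. Gm25099 had 9.87 and 5.19 CPM in DKO, against 10.4 and 28.9 CPM in WT, and Rnu5g had 3.96 and 6.56 CPM in DKO, against 6.65 and 20.9 CPM in WT. In both genes the highest DKO value lay just under the value of WT library 1, and WT library 2 stood above the other 3. Gm24871 had 2.89 and 2.21 CPM in DKO, against 3.82 and 7.38 CPM in WT. The other U5 genes (Gm25313, Gm23287 and Gm22265) overlapped between groups, and no U5 gene passed edgeR's quasi-likelihood test (lowest adjusted p = 0.495, Gm24871).

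U6 forms the catalytic centre together with U2. Its 38 genes spread over 31 units, of which 30 were tested and 26 had both DKO libraries lower. The median log2 fold change of the 30 was -2.38, against -1.40 for 11 U1 units, -1.42 for 8 U2 units and -0.93 for 6 U5 units. These medians cannot be compared as they stand, since 13 of the 38 U6 genes and 2 of the 20 U1 genes reached the count minimum in WT only. Over units with 10 or more counts in all 4 libraries the median was -2.06 for 13 U6 units, -1.40 for 6 U1 units, -1.42 for 7 U2 units and -1.25 for 4 U5 units.

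These copies are hard to tell apart by sequence. The unit of Gm23732 and its copies Gm25173, Gm25211 and Gm26324, the Gm23296 unit and Gm25380 share 31-base words with 293, 295 and 252 other snRNA genes, and the annotated gene Rnu6 itself had only 4.20 and 2.94 estimated counts in DKO, against 6.43 and 13.2 in WT. The Gm23732 unit had 8.06 and 2.47 CPM in DKO, against 7.78 and 27.9 CPM in WT, and its groups overlapped. Gm25380 (T64C, G80A and G107T against Gm23296) had 4.96 and 2.30 CPM in DKO, against 7.12 and 23.1 CPM in WT.

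Gm22063 in an intron of Cbfb had 6.27 and 2.14 CPM in DKO, against 1.44 and 20.2 CPM in WT. In this gene the WT libraries enclosed the DKO libraries. WT library 2 was the highest in all 3 of these U6 units.

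The Gm23296 unit (4 copies with Gm24019, Gm24859 and Gm26243 on chromosomes 10 and 12) had the lowest log2 fold change among units with a mean of 5 CPM or more, and Gm22614 the highest. It had 0 and 0.766 CPM in DKO, against 13.8 and 13.6 CPM in WT, with a log2 fold change of -4.98 (SE 0.89). Each copy reached the count minimum in WT only, so its direction was fixed by its choice as a member. By edgeR's quasi-likelihood test the adjusted p was 0.101. The RNA of Gm23732 differs from that of Gm23296 by G95A and G107T, and none of the 31-base words of Gm23296 was its own.

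Gm24204 in an intron of Rpl3 was at 0 in both DKO libraries, against 1.05 and 1.71 CPM in WT. It reached the count minimum in WT only, so its direction was fixed by its choice as a member. Taking 3 counts per library as the floor, it was at least 8.72-fold lower in DKO by counting error alone. That bound does not cover the division of reads between copies, and Gm24204 shares 31-base words with 209 other snRNA genes. With the bound in place the median over the U6 units was still -2.38. Gm23355 was chosen after its values were seen, as the unit next to the threshold. It had 1.79 and 2.17 CPM in DKO, against 7.42 and 12.4 CPM in WT, with a log2 fold change of -2.31 and an adjusted p of 0.0539 by edgeR's quasi-likelihood test. At the count minimum itself, Gm24060 was just inside with 3 and 11 estimated counts in DKO and 10 and 3 in WT, and matched no other snRNA gene in any 31-base word. Gm26501 was just outside with 9.15 and 2.65 counts in DKO and 0 and 11.5 in WT.

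Among minor spliceosomal RNAs, Gm22710 had most counts. It had 18.2 and 9.45 CPM in DKO, against 38.6 and 63.7 CPM in WT, with a log2 fold change of -1.89 (SE 0.45). Rnu12, which pairs with the branch point of minor introns, had 4.20 and 4.64 CPM in DKO, against 6.27 and 15.5 CPM in WT, with a log2 fold change of -1.29 (SE 0.42). Gm25541 had 1.54 and 0.928 CPM in DKO, against 1.95 and 4.42 CPM in WT.

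All 3 had both DKO libraries lower, and none passed edgeR's quasi-likelihood test (adjusted p = 0.430, 0.491 and 0.602). Without WT library 2 the log2 fold change was -0.49 for Rnu12 and -0.65 for Gm25541. Gm22710 lies within the span of Clasp1 and overlaps an exon of the antisense RNA gene 2900060B14Rik on its own strand. All of its 31-base words are in 2900060B14Rik. Summed with 2900060B14Rik, it had 22.7 and 12.8 CPM in DKO, against 47.3 and 78.0 CPM in WT.

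Rnu11, which recognises the 5′ splice site of minor introns, was the only unit with a log2 fold change above 0, at 0.74 (SE 1.72). It had 0.201 and 2.16 CPM in DKO, against 0 and 1.46 CPM in WT, and the groups overlapped. All of its 31-base words also occur in Gm28872, a gene of 158 bases on the opposite strand. That gene was given 11.3 and 5.82 CPM in DKO, against 17.9 and 29.0 CPM in WT. Summed with Gm28872, Rnu11 had 11.5 and 7.98 CPM in DKO, against 17.9 and 30.4 CPM in WT, so that the sum was lower in both DKO libraries. No source used here names the strand setting of the counting, and reads of these genes cannot be told apart.

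The second grouping was by RNA length. The median log2 fold change was -2.38 over 30 units of 80 to 110 bases (all U6, with 13 genes that reached the count minimum in WT only), -1.37 over 10 units of 111 to 130 bases and -1.59 over 3 units of 131 to 150 bases. It was -1.40 over 11 units of 151 to 170 bases (U1 and Rnu12) and -1.42 over 7 units of 171 to 200 bases (all U2). Length and family nearly coincide in these classes and cannot be told apart. Summed per class, the counts of all 5 classes were lower in both DKO libraries. The spread within groups was widest for the shortest RNAs: the log2 difference between DKO libraries 2 and 1 was -1.10 at 80 to 110 bases and -0.31 at 171 to 200 bases.

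Short nucleolar and Cajal body RNAs (snoRNA and scaRNA), which guide modification of rRNA and snRNA, also had medians below 0. The median was -1.72 over 41 genes of 80 to 110 bases, -1.38 over 24 of 111 to 130 and -1.50 over 68 of 131 to 150 bases. It was -1.31 over 3 of 151 to 170 and -1.69 over 5 of 171 to 200 bases. The median of 10 protein-coding genes of 201 to 350 bases was -0.41. No difference between these classes was tested, so a lower level in DKO is not shown to be particular to snRNA.

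**Figure D3:**
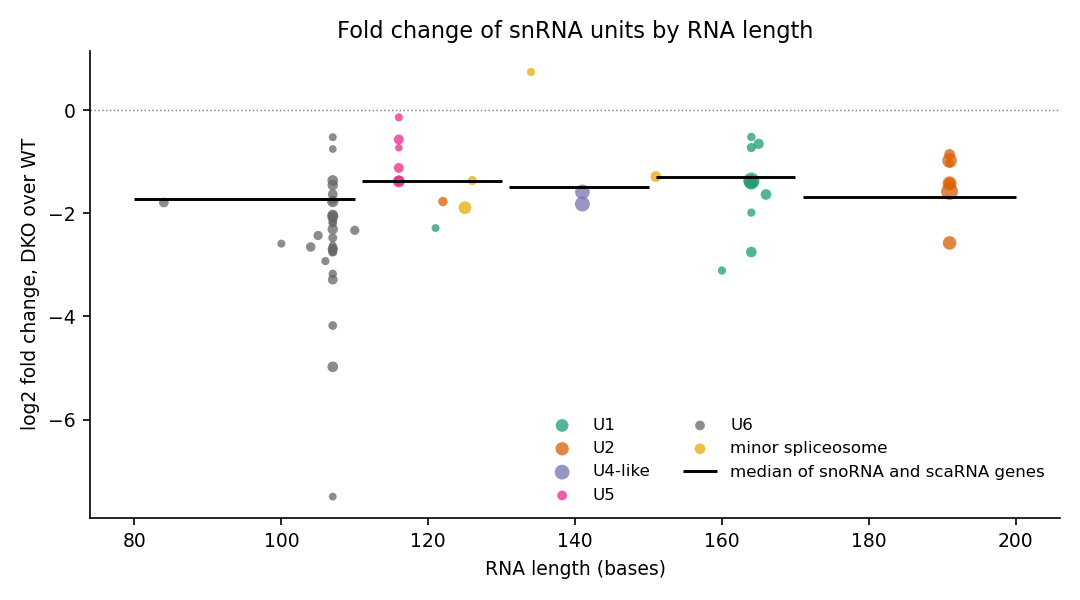
Log2 fold change (DKO over WT) of the 61 tested snRNA units by RNA length in bases, coloured by family, with larger points for higher mean CPM, and black lines for the median of snoRNA and scaRNA genes in the same length class. All units but Rnu11 lie below 0, and the U6 units at the short end spread from -0.53 to -7.49, where the lowest point is Gm24204, at 0 in both DKO libraries.

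Fragment length moved with genotype. The mean fragment length implied by the deposited effective lengths was 133.5 and 142.2 bases in DKO, against 123.8 and 119.8 bases in WT. The order of libraries by snRNA share (WT 2, WT 1, DKO 1, DKO 2) was the reverse of their order by fragment length. The deposited effective length of Gm23296 was 28.3 and 25.9 bases in DKO, against 28.5 and 32.2 bases in WT. Fragment length and genotype cannot be told apart in 4 libraries. With the effective length of each gene and library as an offset in edgeR, 4 units were called lower (Rnu2-10, Gm25939, Gm24497 and Gm23355), against 0.140% of all genes lower and 0.101% higher, and the median log2 fold change of the units was -1.62.

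A ratio to other structural RNAs of the same library does not depend on scaling between libraries. The summed counts of 5 RNA polymerase III transcripts (Rn7sk, which restrains transcription elongation, the signal recognition particle RNAs Rn7s1 and Rn7s2, and the RNase components Rmrp and Rpph1) were used. Each of the 5 was itself lower in both DKO libraries: Rn7sk had 2481 and 2093 CPM in DKO, against 4834 and 4881 CPM in WT, and Rmrp had 950 and 596 CPM in DKO, against 1321 and 2371 CPM in WT. Rn7s1 and Rn7s2 shared 1 set of counts, at 3056 and 2149 CPM in DKO, against 3319 and 5963 CPM in WT, and Rpph1 had 1955 and 1456 CPM in DKO, against 2486 and 3994 CPM in WT. By edgeR's quasi-likelihood test none of the 5 passed (adjusted p = 0.139 to 0.529).

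The log2 ratio of summed snRNA counts to these 5 transcripts was -2.73 and -2.69 in DKO, against -2.14 and -2.12 in WT. The difference was -0.58, or 0.668-fold, with a pooled SD of 0.02 (exact permutation p = 0.333, the smallest possible). To Rn7sk alone the log2 ratio was -0.52 and -0.68 in DKO, against -0.48 and 0.12 in WT, a difference of -0.42 with a pooled SD of 0.31, so the close agreement of replicates held for the sum of the 5 transcripts and not for that one. By family the difference was -0.41 for U1, -0.59 for U2, -0.78 for U4-like, -1.22 for U6 and -0.99 for U4atac-like, and the groups lay apart in each. It was -0.13 for U5, -0.23 for U12 and -0.36 for U6atac-like, where the groups overlapped.

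U6, itself a polymerase III product, was lower relative to the sum of the 5 polymerase III transcripts. The U6 sum used in this paragraph holds 13 genes that reached the count minimum in WT only, so its direction was partly fixed by the count minimum. The log2 ratio was -7.85 and -8.50 in DKO, against -7.27 and -6.65 in WT. These 5 RNAs are 271 to 331 bases long, against 80 to 110 bases for the U6 units. Among shorter polymerase III RNAs the TMM log2 fold change was -2.16 for Rny3 (102 bases), -0.77 for Rny1 (112 bases) and -1.16 for Vaultrc5 (143 bases). That of the U6 sum was -2.18, and -1.94 over members with 10 or more counts in all 4 libraries. A lower level than in polymerase III RNAs of like length is therefore not shown. U6 was lower relative to the U4-like pair as well: that log2 ratio was -2.06 and -2.42 in DKO, against -2.01 and -1.58 in WT, and the groups lay apart by a small margin. In the minor spliceosome the ratio of U6atac-like to U4atac-like was higher in DKO, at -3.56 and -3.35 in DKO, against -4.31 and -3.85 in WT. Relative to the summed snoRNA counts snRNA did not differ by more than its spread, with log2 ratios of -1.07 and -0.55 in DKO, against -0.54 and -1.07 in WT.

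**Figure D4:**
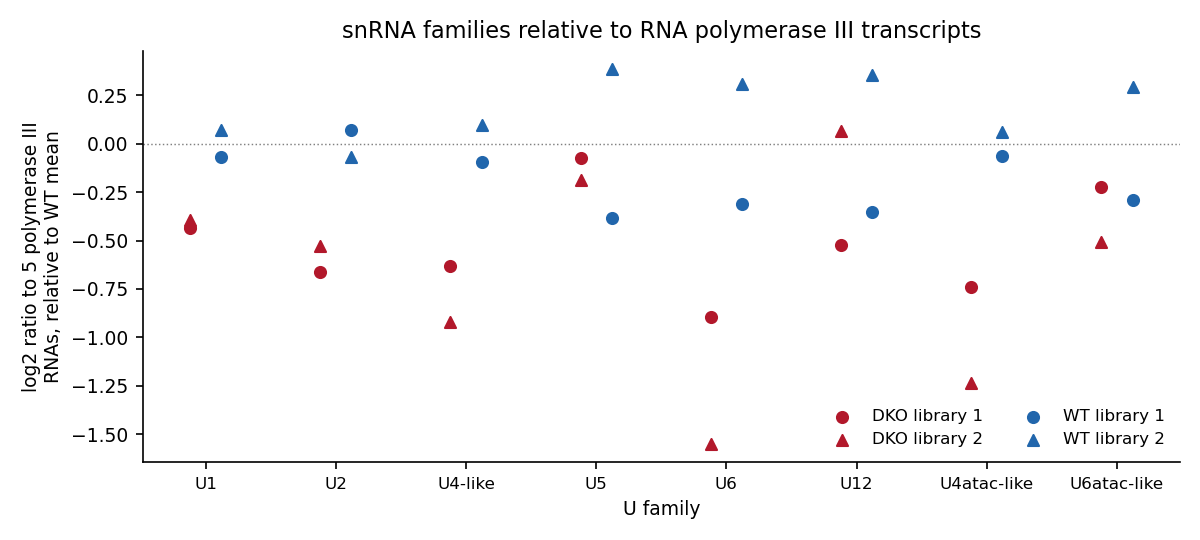
Log2 ratio of each family's counts to the summed counts of 5 RNA polymerase III transcripts, relative to the WT mean of that family, for DKO (left, red) and WT (right, blue) libraries 1 (circles) and 2 (triangles). U1, U2, U4-like, U6 and U4atac-like lie apart, with differences of -0.41 to -1.22, and U5, U12 and U6atac-like overlap.

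None of the protein genes of the spliceosome passed the test. Of 110 listed genes for snRNP proteins and for making, exporting, assembling and trimming snRNA, all were tested, and edgeR's quasi-likelihood test called 0 higher and 0 lower at an adjusted p below 0.05, against 0.0544% and 0.0700% of all genes, so that few calls could be met in a list of this size. At an unadjusted p below 0.05, 0 were higher and 3 lower (Zrsr1, Lsm6 and Snrpg), against 3.83% and 4.35% of all genes, and DESeq2 also called 0 in each direction. The median log2 fold change of the list was 0.04, against -0.01 for all genes, and 18 of its members had both DKO libraries higher and 15 both lower, against 19.9% and 18.8% of all genes.

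For the 7 Sm ring genes the median was -0.18, with Snrpg at 23.7 and 20.8 CPM in DKO, against 26.4 and 31.6 CPM in WT. For the 7 LSm genes it was -0.12, with Lsm6 at 11.6 and 9.45 CPM in DKO, against 14.6 and 15.4 CPM in WT. For the 9 minor spliceosome proteins it was -0.10, with Zrsr1, which binds the 3′ splice site, at 26.1 and 22.9 CPM in DKO, against 35.6 and 33.3 CPM in WT. Their adjusted p-values by edgeR were 0.602, 0.513 and 0.344.

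The members with the smallest p in the other groups lay on either side. Snrnp70 of the U1 snRNP had 63.7 and 59.4 CPM in DKO, against 51.6 and 54.1 CPM in WT. Snrpa1 of the U2 snRNP had 15.7 and 12.1 CPM in DKO, against 8.15 and 11.5 CPM in WT. Ncbp2, a cap-binding protein in snRNA export, averaged 9.13 ± 1.23 CPM in DKO and 6.39 ± 0.164 CPM in WT (SD, n = 2 each), and Snapc2 of the snRNA activating complex had 5.62 and 5.57 CPM in DKO, against 2.52 and 4.42 CPM in WT.

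Snrnp40 of the tri-snRNP had 6.45 and 5.50 CPM in DKO, against 6.56 and 7.50 CPM in WT, and Ints2 of the Integrator, which cuts nascent snRNA, had 6.16 and 6.93 CPM in DKO, against 9.37 and 9.02 CPM in WT. Ssb (La), which binds the end of new polymerase III RNAs, had 112 and 109 CPM in DKO, against 83.7 and 103 CPM in WT. Lsm10 of the U7 snRNP had 4.20 and 2.23 CPM in DKO, against 1.08 and 2.08 CPM in WT. In all of these the groups lay apart, and none passed edgeR's quasi-likelihood test (adjusted p = 0.618 to 0.870).

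Genes that hold a snRNA gene in an intron on the same strand lay on both sides. Of 10 tested, 1 (Rpl3) had both DKO libraries lower and 2 (Ccdc170 and Rock1) both higher, against 18.8% and 19.9% of all genes, with a median log2 fold change of 0.04. None was called by edgeR's quasi-likelihood test.

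The 4 libraries held 13889894 to 17827631 estimated counts. The T cell and naive markers were high in every library, with summed CPM of 2147 to 2232 in DKO and 1759 to 2243 in WT for 8 T cell genes, and of 2457 to 2519 in DKO and 2238 to 2614 in WT for 6 naive genes. Of the NK cell list (2 genes) Ncr1 was at 0 and the sum was 0 to 0.215 CPM in DKO and 0 CPM in WT. Summed levels of 4 myeloid genes were 2.97 to 5.21 CPM in DKO and 4.07 to 5.48 CPM in WT, those of 2 CD8 genes 8.64 to 13.2 CPM in DKO and 7.22 to 7.56 CPM in WT, and those of 2 haemoglobin genes 0 to 0.834 CPM in DKO and 0.260 to 0.288 CPM in WT. The 3 regulatory T cell genes (Foxp3, Il2ra and Ikzf2) summed to 19.6 and 32.2 CPM in DKO, against 8.02 and 9.12 CPM in WT. These and the CD8 sum lay apart between the groups, higher in DKO, although the sort took CD25- CD4+ cells (CD25 is the product of Il2ra). Most of the CD8 sum was Cd8b1, at 8.57 and 13.0 CPM in DKO, against 6.79 and 7.47 CPM in WT. Cd8a had 0.0633 and 0.238 CPM in DKO, against 0.433 and 0.0867 CPM in WT, and its groups overlapped. The part of these markers in the snRNA levels was not tested.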

How the data were processed

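Total RNA of 4 libraries (2 DKO, 2 WT) was depleted of rRNA and made into libraries with a stranded low-input total RNA kit, per the labels and their protocols. The authors used kallisto and the builds mm10 and GRCm38, per the submitters' processing notes. Its version, index and strand setting are not named there. Each deposited table holds a transcript's length and effective length in bases, its estimated count (not normalized) and its TPM, in which the authors' tool divides by effective length, per the file headers.

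Of 126782 transcripts, 125182 (98.7%) were joined by identifier to GENCODE M21 on GRCm38 and summed to 48858 genes. Transcripts without a gene held 0.822 to 0.852% of the counts. Estimated counts were rounded and tested with edgeR 4.0.16 in R 4.3.3 (filterByExpr, TMM, robust quasi-likelihood F test, Benjamini-Hochberg adjustment over all genes tested, threshold 0.05), and DESeq2 1.42.0 was an alternative. The edgeR step was checked beforehand with simulated data. Fold changes are DKO over WT. SE is the size of the log2 fold change over the square root of F. Units are shown as the sum of identical copies, and all copies entered the fit as separate genes.

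Families came from gene names, and for unnamed genes from the best blastn 2.17.0 match (E-value below 1e-05, 50% of the length covered). U4-like, U4atac-like and U6atac-like were assigned by hand from the sequence. Replicate numbers were checked for pairing over 12863 genes: the correlation of the differences between libraries 1 and 2 in the 2 groups was -0.38, so they were not taken as pairs. The rule for naming genes took the 3 units with the highest mean CPM per family, units past the threshold, minor spliceosome and U7 units, the units with the highest and lowest fold change at 5 CPM or more, the genes next to the count minimum, the polymerase III transcripts and the smallest p per protein group. The members, the families, the gene lists and this rule were chosen with earlier results of these data known. Intervals and the floor of 3 counts cover counting error only. Some marker levels and RNA sequences are not reported here.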

Additional observations from a re-analysis of the deposited data

How the results depend on the processing

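Over 14 fits no snRNA unit was called higher, and the count of units called lower, 1 in edgeR with TMM, moved with the processing: 13 with total counts without TMM factors, 3 with scaling to the 5 RNA polymerase III transcripts, 2 with TMM from protein-coding genes only, 31 with no low-count filter, 4 with the effective length offset, 0 with identical counts merged before the fit, 22 with DESeq2 and 3 to 21 when 1 library was left out (the highest without WT library 1). The median log2 fold change of all genes was 0.32 with total counts and 0.90 with the polymerase III scaling, against -0.01 with TMM.

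The replicate numbers were not shown to pair the libraries. With the replicate block edgeR called 14 units lower, and with a crossed replicate block (WT library 1 with DKO library 2), chosen after seeing the data, 33. Without the block the count was 1.

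Log2 fold changes with polymerase III scaling were -0.42 for U1, -0.59 for U2, -0.77 for U4-like, -0.18 for U5, -1.22 for U6 and -0.71 for the minor family, and U2 was -1.20 with total counts. When 1 library was left out, the range was -1.70 to -0.97 for U1, -1.75 to -1.29 for U2, -2.13 to -1.27 for U4-like, -1.72 to -0.35 for U5, -2.83 to -1.44 for U6 and -2.04 to -1.18 for the minor family. The log2 difference in snRNA share was -1.17, and -1.50 as a share of protein-coding counts. The ratio to polymerase III RNA was -0.42 with Rn7sk alone and -0.50 with Rmrp and Rpph1 alone. On the protein list, 2 genes (Sf3b2 and Snrpa1, named after their values were seen) were higher with polymerase III scaling, against 3.67% of all genes, and 0 to 1 when 1 library was left out (Gemin4 without WT library 2). Signs reversed for Gm22614 with polymerase III scaling (0.33), for Gm22063 without WT library 2 (range when 1 library was left out -2.30 to 1.54) and for Rnu11 without DKO library 2 (-1.95) or WT library 1 (-0.29), where the range reached 7.40 without WT library 2, a fitted value against a library at 0. The cause of these moves was not tested. Depth limits the U5, U6 and minor units of a few CPM, and with 2 libraries a group no exact test could pass.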
